A study of Mus musculus with 6 samples.

Results

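The genes described here write, copy, read and remove DNA methylation. The 8 genes, *Dnmt1*, *Uhrf1*, *Dnmt3a*, *Dnmt3b*, *Tet1*, *Tet2*, *Tet3* and *Mbd2*, were chosen by name for their known function, not for their values, and each was found among the 35602 genes of the count table and among the 34714 genes listed for the other libraries. Mouse splenic CD4+ T cells, stimulated through CD3 and CD28, received MAPK13-IN-1, an inhibitor of the kinase encoded by *Mapk13*, or the solvent DMSO, and polyadenylated RNA was sequenced from 3 libraries per group. Cells of replicates 2 and 3 are labelled WT, and their labels give 17.1 µM inhibitor, or DMSO in its place, after day 1 of stimulation, whereas the series text places the inhibitor in the culture for the whole 72 h. The labels of the replicate 1 pair give the treatment but neither a dose nor a genotype. Age and strain are not given in the labels used here, and no label says whether replicates came from separate cultures or animals, so p-values measure the spread between these samples. Replicates 2 and 3 of each group, made with poly-T beads, have whole-number counts taken as raw, with totals of 26874805 and 28487403 in the DMSO libraries and 33854760 and 32617702 in the MAPK13-IN-1 libraries. The replicate 1 pair, made with a stranded mRNA kit, has length-normalized values read here as FPKM, a unit inferred from the values. Its depth is unknown, and with 1 library a group its differences have no replicate check.

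Methylation of cytosine in CpG dinucleotides is laid down by Dnmt3a and Dnmt3b on unmethylated DNA, and is copied to the new strand after replication by Dnmt1, which Uhrf1 recruits by binding hemimethylated CpG. Tet enzymes oxidize 5-methylcytosine, which leads to its loss through repair or replication, and proteins such as Mbd2 bind methylated CpG and bring in the NuRD corepressor complex. In T cells, Dnmt3a is known for silencing genes as naive cells become effector cells, and Tet2 for supporting cytokine gene expression. The RNA of these genes was measured here, not methylation itself.

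With MAPK13-IN-1, transcripts of the maintenance pair *Dnmt1* and *Uhrf1*, the de novo enzyme *Dnmt3a* and the reader *Mbd2* were lower, and those of the erasers *Tet1* and *Tet2* were higher, while *Dnmt3b* and *Tet3* did not pass the test. Thus 4 of the 8 genes were lower at an adjusted p under 0.05, against 32.3% of the 16269 genes tested, and 2 were higher, against 31.5% of all genes tested. Since most genes in this comparison were called in either direction, these shares are read as a description of the members. The median log2 fold change was −0.22 over the 8 genes and 0.01 over all genes tested. In 7 of the 8 genes the groups did not overlap in normalized counts, which was also the case for 83.0% of all genes tested and which chance gives in 33.3% of genes. Of the 7 genes with at least 1 FPKM in either library of the replicate 1 pair, 6 were lower with MAPK13-IN-1, against 43.5% of the 11510 genes at that level. All 8 passed the filter on low counts. With libraries scaled by their totals alone, the median of all genes tested moved to 0.14, and the members kept their calls and their directions relative to 0 except *Tet3*, whose log2 fold change turned to 0.11.

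**Figure D1:**
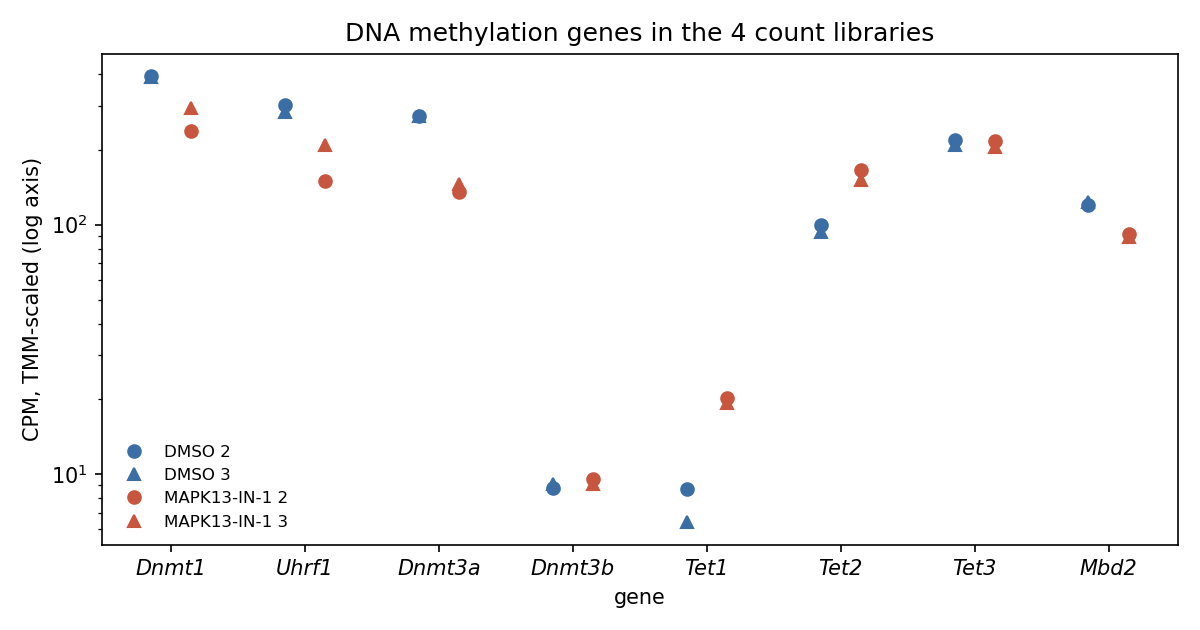
Normalized counts (CPM scaled by TMM, log axis) of the 8 genes in the 4 count libraries. Each point is 1 library, DMSO in blue and MAPK13-IN-1 in red, with circles for replicate 2 and triangles for replicate 3. *Dnmt1*, *Uhrf1*, *Dnmt3a* and *Mbd2* lie lower, and *Tet1* and *Tet2* higher, in both MAPK13-IN-1 libraries than in both DMSO libraries.

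The label of the cells was checked first. Of 8 CD4 T cell markers 7 were listed, and their summed level was 1596 and 1618 CPM by library total in the DMSO libraries and 947 and 1065 CPM in the MAPK13-IN-1 libraries, with *Cd5* the most abundant under DMSO and *Cd4* under MAPK13-IN-1. Of the 7, 6 were lower in the edgeR fit, against 32.3% of all genes tested, with a median log2 fold change of −1.20. *Cd4* itself did not pass the test, at 275 and 276 CPM scaled by TMM with DMSO and 267 and 283 with MAPK13-IN-1, while by library total it was at 264 and 263 CPM and at 279.9 and 294 CPM. B cell markers were also abundant. Of the 12 markers 11 were listed, none at 0, and they summed to 1116 and 1091 CPM with DMSO and 1381 and 1393 CPM with MAPK13-IN-1, led by *Pax5* under MAPK13-IN-1. Of the 11, 7 were higher and 3 lower in the edgeR fit, beside 31.5% and 32.3% of all genes tested, with a median log2 fold change of 0.18, *Vpreb3* falling by 1.84, *Fcer2a* by 1.00 and *Cd22* by 0.39. In the replicate 1 pair the same markers summed to 54.1 FPKM with DMSO and 37.4 FPKM with MAPK13-IN-1, beside 1024 and 934 FPKM for the CD4 T cell markers. CD8 T cell markers summed to 11.2 and 10.4 CPM with DMSO and 5.76 and 8.16 CPM with MAPK13-IN-1, mostly from *Cd8b1*, but to 3.49 and 8.39 FPKM in the replicate 1 pair, the opposite direction. Myeloid markers rose from 13.1 and 11.5 to 43.8 and 36.3 CPM, mostly from *Cd68*, with *S100a9* at 0 in all 4 libraries, and erythroid markers from 6.14 and 6.14 to 76.9 and 55.5 CPM, led by *Hbb-bs*. NK markers summed to at most 0.443 CPM in each library, and *Klra8* was at 0 in all 4. In such mixed RNA, fewer cells of a type and less RNA per cell cannot be told apart, and the part of other cells in the values below was not tested.

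*Dnmt1* encodes the maintenance methyltransferase and lies at chr9:20907209-20959888 on the minus strand (GRCm38). It was at 393 and 391.1 CPM in DMSO replicates 2 and 3 and at 238 and 293 CPM in MAPK13-IN-1 replicates 2 and 3, scaled by TMM as are all CPM of single genes below. Both inhibitor libraries were below both DMSO libraries, and replicate 2 was the lower of them. The log2 fold change was −0.57 (standard error 0.0831, edgeR quasi-likelihood, Benjamini-Hochberg adjusted p = 0.000171), lower in each of the 2 inhibitor libraries. *Uhrf1*, which brings Dnmt1 to newly replicated DNA, lies at chr17:56303321-56323486 on the plus strand. Its levels were 303 and 283 CPM with DMSO and 149 and 209 CPM with MAPK13-IN-1. The groups were again apart, with the same inhibitor replicate lowest, and the 2 inhibitor libraries were more spread (179 ± 42.3 CPM, SD, n = 2) than the DMSO libraries (293 ± 13.9 CPM, SD, n = 2). *Uhrf1* fell by 0.71 on the log2 scale (standard error 0.121, edgeR adjusted p = 0.000465). Its log2 fold change was −0.98 without MAPK13-IN-1 replicate 3 and −0.49 without MAPK13-IN-1 replicate 2. In FPKM, *Dnmt1* went from 81.5 to 47.5 and *Uhrf1* from 84.8 to 50.4 between DMSO and inhibitor replicate 1. Both genes were thus lower in all 3 MAPK13-IN-1 libraries than in the DMSO libraries of the same unit.

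A list of 21 proliferation genes moved with this maintenance pair. All 21 were tested, 18 were lower (against 32.3% of all genes tested) and 0 higher in the edgeR fit at an adjusted p under 0.05, and their median log2 fold change was −0.76. Summed, they gave 3345 and 3292 CPM of the library total with DMSO, and 2030 and 2674 CPM in MAPK13-IN-1 replicates 2 and 3, so that replicate 2 was lowest here as for *Uhrf1* and *Dnmt1*. Their sum also fell in the replicate 1 pair, from 1700 to 981 FPKM. *Mki67* was at 417 and 417 CPM with DMSO and 303 and 445 CPM with MAPK13-IN-1, and was among the 3 that did not pass, with *Cdc6* and *Gins2*. *Pcna*, the replication clamp, which is also counted among the partners of Dnmt1 below, fell by 1.04 on the log2 scale, *Mcm2* by 1.07 and *Tk1* by 0.97. The part of proliferation in the fall of *Dnmt1* and *Uhrf1* was not tested.

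*Dnmt3a*, a de novo methyltransferase, lies at chr12:3806007-3914443 on the plus strand. It stood at 272 and 273 CPM in the DMSO libraries and at 135 and 146 CPM in the MAPK13-IN-1 libraries. The replicates of each group were close together and the groups far apart. This was a log2 fold change of −0.96 (standard error 0.0585, edgeR adjusted p = 4.17e-07), a fold of 0.515, and it stayed between −1.02 and −0.90 when any library was dropped. The replicate 1 pair gave 22.8 FPKM with DMSO and 17.9 FPKM with MAPK13-IN-1, a smaller log2 ratio of −0.33 of FPKM + 1. An antisense gene, *Dnmt3aos*, shares 133 exon bases with *Dnmt3a*, and strand is not stated for the counting, but it had only 4 and 13 counts with DMSO and 0 and 0 with MAPK13-IN-1, against at least 4796 for *Dnmt3a*.

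*Dnmt3b*, the related de novo enzyme at chr2:153649450-153687730 on the plus strand, was a low-level gene, with 8.80 and 9.12 CPM (227 and 248 counts) with DMSO and 9.52 and 9.15 CPM (338 and 310 counts) with MAPK13-IN-1. Both inhibitor libraries lay above both DMSO libraries, but by less than the fitted error. The log2 fold change was 0.06, with a 95% interval of −0.22 to 0.34 (edgeR adjusted p = 0.700). In the replicate 1 pair *Dnmt3b* had 2.03 FPKM without and 1.83 FPKM with the inhibitor. *Dnmt3l*, a cofactor of the de novo enzymes without catalytic activity, was close to the floor, falling from 14 and 11 counts under DMSO to 4 and 2 under the inhibitor.

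*Tet1* had the lowest normalized counts of the Tet genes. It lies at chr10:62804570-62908996 on the minus strand and was at 8.69 and 6.40 CPM (224 and 174 counts) with DMSO and at 20.2 and 19.2 CPM (716 and 651 counts) with MAPK13-IN-1. Each inhibitor library held more than each DMSO library. The log2 fold change was 1.39 (standard error 0.144, edgeR adjusted p = 1.43e-05), a fold of 2.62, and it was 1.17 without DMSO replicate 3 or 1.61 without DMSO replicate 2. At 0.355 FPKM with DMSO and 0.402 FPKM with MAPK13-IN-1, the replicate 1 pair showed little of this rise, on a level too low to be read closely at unknown depth.

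*Tet2*, at chr3:133463679-133545139 on the minus strand, was at 99.8 and 93.4 CPM with DMSO and at 165 and 150.5 CPM with MAPK13-IN-1. The groups were clearly apart, and the replicates of each differed little. It rose by a log2 fold change of 0.71 (standard error 0.0680, edgeR adjusted p = 8.34e-06), with values between 0.64 and 0.77 as libraries were left out in turn. In the replicate 1 pair *Tet2* went from 6.13 to 10.6 FPKM, a log2 ratio of 0.70. An antisense gene, *Gm42567*, shares 43 of the 16870 exon bases of *Tet2*.

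*Tet3*, at chr6:83362373-83459084 on the minus strand, was at 217 and 208 CPM with DMSO and at 216 and 205 CPM with MAPK13-IN-1. The ranges of the groups overlapped. The log2 fold change was −0.02 (95% interval −0.14 to 0.11, edgeR adjusted p = 0.824). The replicate 1 pair gave another picture, with 16.3 FPKM for DMSO and 11.3 FPKM for MAPK13-IN-1, a log2 ratio of −0.49, and whether this differs from the count libraries was not tested.

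*Mbd2*, the methyl-CpG binding subunit of NuRD, lies on the plus strand of chromosome 18 from 70568189 to 70626131. Its levels were 120.1 and 123 CPM with DMSO and 91.5 and 89.3 CPM with MAPK13-IN-1. The 2 libraries of a group were nearly equal and the groups did not overlap. *Mbd2* fell by 0.42 on the log2 scale (standard error 0.0597, edgeR adjusted p = 0.000125), the smallest change among the 6 genes called. It had 60.7 FPKM and 59.3 FPKM in the replicate 1 pair, a log2 ratio of −0.03 that turned to 0.02 when both libraries were rescaled to the same total.

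**Figure D2:**
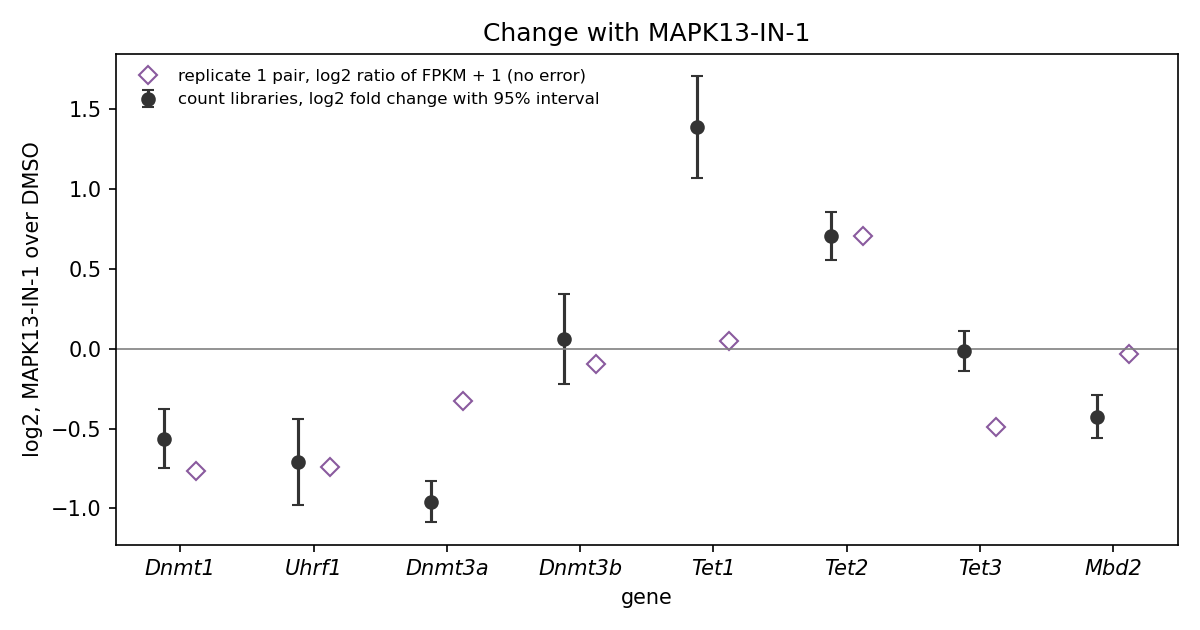
Change of the 8 genes with MAPK13-IN-1 on the log2 scale. Filled points are the log2 fold changes of the 4 count libraries with 95% intervals from the edgeR fit, and open diamonds are the log2 ratios of FPKM + 1 in the replicate 1 pair, which have no error. *Dnmt1*, *Uhrf1*, *Dnmt3a* and *Tet2* lie on the same side of 0 by both measures, *Tet1* is at 1.39 in the count libraries and 0.05 in the pair, and *Tet3* lies at −0.02 and −0.49, the former turning to 0.11 with libraries scaled by their totals.

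Each of the 4 genes called lower was also lower in the replicate 1 pair, *Mbd2* barely so, as were 58.2% of the 4581 genes called lower that had at least 1 FPKM there. Of the genes called higher, *Tet2* had at least 1 FPKM and was higher, as were 74.4% of 3243 such genes. The pair and the count libraries share no control sample, but they differ in library kit and in unit.

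Levels of different genes were compared per kilobase of annotated exon. In DMSO replicates 2 and 3 the order was *Uhrf1* (71.0 and 66.4 CPM per kilobase), *Dnmt1* (53.3 and 53.0), *Mbd2* (37.4 and 38.2), *Dnmt3a* (16.3 and 16.4), *Tet3* (13.0 and 12.5), *Tet2* (5.91 and 5.54), *Dnmt3b* (1.72 and 1.79) and *Tet1* (0.562 and 0.414). No neighbours in this order overlapped between the 2 DMSO libraries, and FPKM of DMSO replicate 1 gave the same order. With MAPK13-IN-1 *Uhrf1* (35.0 and 49.0 CPM per kilobase) and *Dnmt1* (32.2 and 39.7) overlapped. *Dnmt3a*, at 8.12 and 8.75 CPM per kilobase, came below *Tet3* (12.9 and 12.3) and below *Tet2* (9.79 and 8.92) there, whereas in FPKM of MAPK13-IN-1 replicate 1 it stayed above both. *Mbd2* (59.3 FPKM) came above *Uhrf1* (50.4) and *Dnmt1* (47.5) in MAPK13-IN-1 replicate 1. In the MAPK13-IN-1 count libraries it lay below both, at 28.5 and 27.8 CPM per kilobase. These orders depend on the exon lengths used, which count all annotated transcripts of a gene.

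Ratios of these levels inside a library do not depend on how libraries are scaled. The levels of *Dnmt1*, *Dnmt3a* and *Dnmt3b* per kilobase, summed after the values had been seen, were 3.66 and 3.87 times those of the 3 Tet genes in DMSO replicates 2 and 3 and 1.76 and 2.23 times in the MAPK13-IN-1 libraries. In FPKM of the replicate 1 pair this ratio was 4.66 with DMSO and 3.01 with MAPK13-IN-1. It was lower in all 3 MAPK13-IN-1 libraries than in the DMSO libraries of the same unit. Within the Tet genes, *Tet2* made up 30.3% and 30.1% of the summed level with DMSO and 40.8% and 39.7% with MAPK13-IN-1, and 26.9% and 47.5% of FPKM in the replicate 1 pair. *Tet3* was the main Tet transcript in each library, with 66.8% and 67.7% in DMSO replicates 2 and 3 and 53.8% and 54.8% with the inhibitor. Among the Dnmt genes, *Dnmt1* held between 70.6% and 79.0% of the summed level in all 6 libraries. *Dnmt3a* was 9.47 and 9.19 times *Dnmt3b* in the DMSO libraries and 4.35 and 4.88 times in the MAPK13-IN-1 libraries, but 11.2 and 9.77 times in the replicate 1 pair.

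The partners of these genes were taken from lists fixed by name. A list for maintenance and de novo methylation had 15 genes tested. Of these, 7 were lower and 4 higher at an adjusted p under 0.05 in the edgeR fit. This stands beside 32.3% and 31.5% of all genes tested. The median log2 fold change was −0.14, against 0.01 over all genes tested. The −0.14 was that of *Trdmt1*, a tRNA methyltransferase that the list also holds. Fewer genes of the list, and fewer of all genes tested, were higher when either DMSO library was left out. With library totals alone 6 were lower and 6 higher, beside 4302 and 6176 of all 16269 genes tested. *Uhrf2*, the paralogue of *Uhrf1*, moved the other way from it, from 98.1 and 98.3 to 142 and 139 CPM, or by 0.52 on the log2 scale (standard error 0.0581, edgeR adjusted p = 2.45e-05). The zinc-finger gene *Zbtb24* and its partner *Cdca7*, which act together in methylation of repeats, fell by 0.97 and 0.83 on the log2 scale. *Zbtb24* went from 6.84 to 9.61 FPKM in the replicate 1 pair, the opposite direction. *Hells*, the remodeller that works with *Cdca7*, had a log2 fold change of −0.10 and did not pass the test.

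Of 9 other methyl-CpG readers tested, 4 were lower and 2 higher in the edgeR fit, beside 32.3% and 31.5% of all genes tested. Their median log2 fold change was −0.01. Fewer of them, and fewer of all genes tested, were higher without DMSO replicate 3. *Mbd3*, which replaces *Mbd2* in other NuRD complexes, fell by 0.67, *Mbd6* by 0.59 and *Mbd1* by 0.21 on the log2 scale, though the replicate 1 pair had more of *Mbd1* (35.1 against 22.5 FPKM) and of *Mbd6* (16.4 against 15.3 FPKM) with the inhibitor. *Zbtb38* rose by 0.74, and *Mbd4* did not pass the test, at a log2 fold change of 0.03. Of 14 genes of the NuRD complex, which count *Mbd3* again, 9 were lower and 3 higher, beside 32.3% and 31.5% of all genes tested, with a median of −0.19. Scaling by library totals left 4 lower and 3 higher, beside 4302 and 6176 of all 16269 genes tested. Fewer NuRD genes, and fewer of all genes tested, were higher when either DMSO library was left out. The histone-binding subunit *Rbbp7* fell by 0.60, *Cdk2ap1* by 0.57 and *Rbbp4*, named after its values were seen, by 0.38, while *Chd5* rose by 1.52 from 4.54 and 2.79 to 10.6 and 10.4 CPM.

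Of 18 genes tested that complete demethylation after the Tet enzymes, 9 were lower and 6 higher, beside 32.3% and 31.5% of all genes tested, with a median of −0.17. With library totals alone these numbers were 6 lower and 8 higher, beside 4302 and 6176 of all 16269 genes tested. *Gadd45b* rose by 1.60 and *Gadd45g* by 1.07 on the log2 scale, and both were also higher in the replicate 1 pair, *Gadd45b* from 30.4 to 147 FPKM and *Gadd45g* from 21.2 to 53.6 FPKM. *Gadd45a* of the same family fell by 1.14, and from 20.3 to 14.0 FPKM in the pair. The base excision genes *Apex1* and *Lig3* both fell by 1.28 and *Polb* by 1.18. Their falls were smaller in the replicate 1 pair, with log2 ratios of −0.21, −0.10 and −0.12. *Parp1* rose by 0.64, *Xrcc1*, the partner of *Lig3*, by 0.36 and *Smug1* by 0.35. None of these 3 was higher with the inhibitor in the replicate 1 pair. *Tdg*, the glycosylase that removes oxidized methylcytosine, fell by 0.82, from 91.0 and 94.1 to 45.2 and 59.8 CPM.

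Of 16 genes tested that make, use or recycle the methyl donor, make or clear 2-oxoglutarate and 2-hydroxyglutarate, or carry ascorbate, 7 were lower and 5 higher, beside 32.3% and 31.5% of all genes tested, with a median of −0.07. Fewer of them, and fewer of all genes tested, were higher without DMSO replicate 3. With library totals alone 5 were lower and 5 higher, beside 4302 and 6176 of all 16269 genes tested. *Mat2a*, which makes S-adenosylmethionine, fell by 0.81, from 150.1 and 156 to 92.3 and 81.8 CPM, and from 83.3 to 56.7 FPKM in the replicate 1 pair. *Ahcy*, which clears S-adenosylhomocysteine, fell by 0.61 and *Ahcyl1* by 0.43. *Idh2*, the mitochondrial isocitrate dehydrogenase, fell by 0.54, whereas the cytosolic *Idh1* rose by 0.60 from 7.60 and 6.62 to 11.0 and 10.5 CPM.

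Germline genes that promoter methylation keeps silent in somatic cells were listed as a set near zero. All 16 were listed, 9 had at most 3 counts in every count library, 4 of these having 0 counts throughout, and 3 passed the filter on low counts. Their summed level was 11.6 and 12.7 CPM with DMSO and 8.42 and 11.1 CPM with MAPK13-IN-1, with *Brdt* the most abundant. Of the 3 tested, 2 were lower and 0 higher in the edgeR fit, beside 32.3% and 31.5% of all genes tested. Without the filter 2 were lower and 1 higher, beside 5344 and 5377 of all 23664 genes, so these numbers depend on the filter. In addition, 1 was lower with at least 10 counts in every library or with DESeq2. The numbers also changed when either DMSO library was left out, and fewer of all genes tested were called there. *Brdt*, at 10.8 and 11.4 CPM with DMSO and 7.13 and 8.85 CPM with MAPK13-IN-1, fell by 0.48 on the log2 scale. *Taf7l* had 9 and 17 counts with DMSO and 0 and 0 with MAPK13-IN-1, at least 5.63-fold lower against 3 counts per library, a limit that covers counting error only. *Taf7l* passed the filter through its DMSO counts alone, whereas *Stk31*, seen only with the inhibitor, was not tested in the main fit. The tally of 2 lower and 0 higher is thus no result about the list. *Stk31*, named after its values were seen, had 0 counts in both DMSO libraries and 7 and 14 counts with the inhibitor, and was listed at 0 in both libraries of the replicate 1 pair.

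Likeness to other genes was measured as the root mean square difference of log2 CPM centred on each gene's mean over the 4 count libraries. The nearest gene to *Dnmt1* was *Lig1*, a replication ligase (0.0121), and the nearest to *Uhrf1* was *Pclaf*, a binding partner of the replication clamp (0.0195). *Dnmt3a* was nearest to *Pigp* (0.00746), *Tet2* to *Abracl* (0.00991) and *Tet1* to *Stum* (0.00992). *Dnmt3b* and *Tet3* were nearest to *Lrrc8c* (0.00521) and *Mrps27* (0.00766). With 4 libraries many genes lie this close, and the measure says nothing of shared control.

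Promoter windows from RefSeq (GRCm38.p6), 250 bases before to 50 after a start, were matched for 7 of the 8 genes, not for *Mbd2*, with 12 windows in all since some genes have several starts. Against a median of 7 CpG per window over 32851 windows, the *Tet2* window held 57, more than 99.8% of windows. The first and second *Dnmt3a* windows, which overlap, held 46 and 47 CpG and the third 18, *Dnmt3b* held 30, *Tet3* 22 and *Tet1* 17. The 3 *Dnmt1* windows held 2, 12 and 33 CpG, and the 2 *Uhrf1* windows 12 and 33. Motifs were searched on both strands, with no regard to cell type. E2F-like words (TTTCCCGC, TTTGGCGC, TTTCGCGC or TTTGCCGC) were found in 2.26% of all windows, CTTTGA of TCF/LEF in 16% and CCAAT in 37.4%. GGGCGG of Sp factors was found in 35.7% of all windows, the E-box CACGTG in 7.15% and CCGGAA of ETS factors in 14.9%. Among the members an E2F-like word was found in a *Uhrf1* window and a *Dnmt1* window, CTTTGA in a *Dnmt1* window, CACGTG in a *Dnmt3a* window, CCGGAA in a *Uhrf1* window, CCAAT in windows of *Dnmt1*, *Uhrf1* and *Tet3*, and GGGCGG in at least 1 window of each of the 7 genes. A match is a description of the letters only.

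The bases before the start are printed for *Uhrf1* and *Dnmt3a*, which fell, and for *Tet2*, which rose, from windows with no annotated exon before the start. Capitals mark the motifs above. The *Uhrf1* stretch is chr17:56304063-56304312 on the plus strand, with TTTCGCGC beginning at −185 from the start, CCAAT at −150 and −107, and GGGCGG at −133, −81 and −42. The *Dnmt3a* stretch is chr12:3806730-3806979 on the plus strand, with GGGCGG at −159, −104, −92, −85 and −42. The *Tet2* stretch is chr3:133544391-133544640 on the minus strand, with GGGCGG in reverse complement at −11.
Uhrf1: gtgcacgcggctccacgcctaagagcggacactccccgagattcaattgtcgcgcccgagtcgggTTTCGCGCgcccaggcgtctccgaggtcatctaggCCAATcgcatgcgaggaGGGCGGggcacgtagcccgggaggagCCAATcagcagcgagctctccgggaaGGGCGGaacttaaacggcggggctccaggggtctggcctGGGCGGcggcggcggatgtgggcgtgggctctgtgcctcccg
Dnmt3a: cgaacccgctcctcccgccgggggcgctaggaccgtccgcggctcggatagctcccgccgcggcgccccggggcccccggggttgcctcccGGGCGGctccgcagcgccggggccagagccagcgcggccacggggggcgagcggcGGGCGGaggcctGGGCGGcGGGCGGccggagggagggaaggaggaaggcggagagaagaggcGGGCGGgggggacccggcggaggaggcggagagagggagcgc
Tet2: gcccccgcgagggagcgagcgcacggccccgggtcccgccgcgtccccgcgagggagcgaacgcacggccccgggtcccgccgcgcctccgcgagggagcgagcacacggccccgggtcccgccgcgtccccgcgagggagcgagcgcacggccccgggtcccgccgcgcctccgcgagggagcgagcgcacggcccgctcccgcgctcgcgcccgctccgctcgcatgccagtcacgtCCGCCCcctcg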

How the data were processed

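For replicates 2 and 3 the authors deposited whole-number counts per gene, taken here as raw counts of reads; whether they were derived from StringTie coverage is not stated. The authors deposited only normalized values for replicate 1, taken here as FPKM because they are fractional, total 405150 and 390729, and relative to the DMSO counts fall with exon length (slope −0.60 on log2 scales over 14141 genes). The submitters' processing notes name fastp 0.21.0, HISAT2 2.1.0, StringTie 2.1.5 and DESeq2 1.30.1 for the count libraries, and FastQC and HISAT2 for the pair, with GRCm38/mm10, but no roles, annotation or strand handling. No per-sample column was left unused (0).

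Counts were tested in R 4.3.3 with edgeR 4.0.16 (filterByExpr with a minimum count of 10 and total of 15, TMM factors of 0.960, 0.955, 1.05 and 1.04, quasi-likelihood test, 2 libraries against 2, Benjamini-Hochberg adjustment over all 16269 genes tested), after a trial on simulated data. Summed marker levels use library totals. Spread inside a group exceeded sampling noise (mean chi-square per gene 2.98 in DMSO and 9.65 with MAPK13-IN-1). Exon lengths and gene coordinates are from GENCODE M21 (GRCm38). Alternatives were RLE, library totals alone, other filters and thresholds, a replicate block, DESeq2 1.42.0, each library left out, and for the pair a pseudocount of 0.1 in place of 1 or rescaling.

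Named were all 8 members, genes of the lists with small p, and direct partners or paralogues. Others were named for their level, for not passing the test or for going against the rest of their list. Some genes with small p, such as *Rrm2* of the proliferation list, were not named. The members and lists were chosen with earlier results of these data known.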

Additional observations from a re-analysis of the deposited data

Results flagged for a closer look

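*Dnmt3b* did not pass the test, but its values lay in opposite directions in the count libraries and in the replicate 1 pair. Both MAPK13-IN-1 count libraries (9.52 and 9.15 CPM) were above both DMSO libraries (8.80 and 9.12 CPM), while the log2 ratio of the replicate 1 pair was −0.10. The difference was not tested, and the pair, with 1 library a group, allows no test.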

How the results depend on the processing

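The calls and directions of *Dnmt1*, *Dnmt3a*, *Uhrf1*, *Tet1*, *Tet2* and *Mbd2* held under RLE, library totals, both other filters, the block, DESeq2 and each library left out, a fit that assumes the lone library of a group varies like the others. *Tet3*, not called under any of them, turned to 0.11 with library totals and 0.0295 with at least 10 counts in every library, and ranged from −0.0553 to 0.0119 with libraries left out. The cause was not tested. Leaving out libraries gave −0.73 to −0.42 for *Dnmt1*, −1.02 to −0.90 for *Dnmt3a*, 0.02 to 0.08 for *Dnmt3b*, −0.98 to −0.49 for *Uhrf1*, 1.17 to 1.61 for *Tet1*, 0.64 to 0.77 for *Tet2* and −0.45 to −0.41 for *Mbd2*. Of the members called, only *Tet1* had an absolute log2 fold change over 1 (1.39), the next being *Dnmt3a* at −0.96. How many of all genes tested pass this limit was not counted, so this describes the members alone. With the replicate number as a block, *Dnmt1* was at −0.57 and *Uhrf1* at −0.73, 5384 genes were lower and 5261 higher, and no member's call changed. Same-numbered libraries did not deviate together (correlation −0.0145 across 16269 genes), and the labels do not say that numbers pair them. Of the lists, the NuRD genes lower became 4 with library totals. The germline genes lower became 1 with at least 10 counts in every library or DESeq2, and changed in number without single libraries. Higher without a filter and with DESeq2 was 1 germline gene. CD8 markers lower became 1 with DESeq2. Without single libraries the genes higher ranged from 1 to 5 for cofactors, 1 to 2 for readers, 3 to 6 for the methyl donor and 2-oxoglutarate list, 1 to 3 for NuRD, 0 to 1 for germline genes and 0 to 1 for proliferation. In the replicate 1 pair, a pseudocount of 0.1 gave −0.78, −0.34, −0.14, −0.75, 0.14, 0.78 and −0.52, and rescaling to equal totals −0.71, −0.28, −0.0636, −0.69, 0.0635, 0.75 and −0.44, for *Dnmt1*, *Dnmt3a*, *Dnmt3b*, *Uhrf1*, *Tet1*, *Tet2* and *Tet3* respectively. *Mbd2* went to 0.0182 when rescaled. The unknown depth of the pair limits what its low values, such as those of *Tet1*, can show.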
